A study of Mus musculus with 5 samples.

Results

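Brain microvessels were profiled for 9 genes that regulate blood clotting and clot dissolution at the vessel wall: *Plat*, *Serpine2*, *Thbd*, *Procr*, *Tfpi*, *Vwf*, *F3*, *F8* and *Anxa2*. They were chosen by function, with earlier results of these data known, and found by their Ensembl identifiers in the NCBIM37 annotation. All 9 were present among the 34615 gene symbols of the deposited files, and all 9 had a mean of at least 1 FPKM (fragment counts divided by exon length and by the size of the library), the lower limit for testing. Microvascular fragments were isolated from the brains of male heterozygous Ins2-AKITA mice (n = 2) and littermate wild-type males (WT, n = 3) on a background labelled C57BL6 (C57Bl/6-J in the study's methods), killed at 26 to 38 weeks. The Akita allele is a mutation of the insulin 2 gene that makes the mice hyperglycemic, and the labels give no other allele or treatment. Each library came from 1 mouse. The fragments had been pulled down with antibodies to the endothelial protein PECAM1, and such fragments can bring along attached mural cells and glial end-feet.

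In each library the fragments behind the FPKM values were estimated from the smallest steps between low values, which gave 1125875 to 2852118 fragments per mouse. WT replicate 3 was the deepest. The marker lists showed mixed tissue. All 12 endothelial markers were detected, with *Pecam1* at 65.8 to 92.8 FPKM in WT and 58.3 and 63.1 FPKM in Ins2-AKITA mice. The astrocyte marker *Gfap* stood at 114 to 159 FPKM in WT and 156 and 194 FPKM in Ins2-AKITA mice, and the neuronal marker *Snap25* at 133 FPKM or more in every library. The pericyte marker *Pdgfrb* was at 14.8 to 20.8 FPKM in WT against 15.0 and 19.3 FPKM in Ins2-AKITA mice, and the smooth muscle marker *Acta2* at 116 to 143 FPKM against 72.1 and 96.9 FPKM. The endothelial markers summed to 553 to 912 FPKM in WT against 449 and 590 FPKM in Ins2-AKITA mice, and 10 of the 12 had a log2 fold change below 0. The 8 pericyte markers summed to 211 to 264 FPKM in WT against 183 and 237 FPKM in Ins2-AKITA mice, and 6 of the 8 had a log2 fold change below 0. The 7 astrocyte markers summed to 2118 to 2927 FPKM in WT against 3338 and 3933 FPKM, and all 7 had a log2 fold change above 0. In such bulk samples, fewer cells of a type and less RNA per cell cannot be told apart.

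Tissue factor, encoded by *F3*, starts coagulation where blood meets the tissue around a vessel, and astrocytes are known as its main source in brain. Endothelium opposes this with an inhibitor of tissue factor (*Tfpi*) and with thrombomodulin (*Thbd*), which turns thrombin into an activator of protein C, a step aided by the endothelial protein C receptor (*Procr*). Von Willebrand factor (*Vwf*) tethers platelets and carries coagulation factor VIII (*F8*). Tissue plasminogen activator (*Plat*) makes plasmin, the enzyme that dissolves fibrin. Annexin A2 (*Anxa2*) binds plasminogen and its activator on the cell surface, and protease nexin 1 (*Serpine2*) inhibits thrombin and plasminogen activators.

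The sequences before the transcription start are printed for the 3 genes with the largest log2 fold changes between the genotypes, none of which passed the test, so that the regulatory DNA can be read beside the values. Each shows the 120 bases before the start of the coding transcript with the longest coding sequence, on the plus strand of NCBIM37. For *Vwf* this start lies inside the annotated gene, downstream of its first base. Capitals mark matches, on either strand, to any of 7 short motifs.
*Plat*, chr8:23868096-23868215: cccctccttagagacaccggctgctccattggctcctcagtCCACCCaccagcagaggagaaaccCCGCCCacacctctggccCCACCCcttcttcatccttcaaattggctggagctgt
*Anxa2*, chr9:69301307-69301426: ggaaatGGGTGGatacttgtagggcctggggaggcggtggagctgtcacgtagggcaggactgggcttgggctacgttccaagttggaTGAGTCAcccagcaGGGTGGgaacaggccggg
*Vwf*, chr6:125502846-125502965: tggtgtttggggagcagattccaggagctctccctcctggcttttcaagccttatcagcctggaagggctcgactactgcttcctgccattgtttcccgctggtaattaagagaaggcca

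The motifs were the GC box (GGGCGG), the CACCC element (CCACCC), the AP-1 element (TGANTCA), the E-box (CACGTG), the cAMP response element (TGACGTCA), the TATA box (TATAAA) and a GATA element (AGATAA). They were searched in the 250 bases before the start of all 9 genes and of all 22380 coding genes with such a window, and matches could overlap. A GC box lay before 6 of the 9 genes and before 40.9% of all coding genes. A CACCC element lay before 5 of the 9, against 28.9% of all. An AP-1 element lay before *Anxa2*, *F3* and *Procr*, against 5.96% of all. *Plat* held 1 GC box and 2 CACCC elements, and *Vwf* held none of the 7 motifs. An E-box was found before *Serpine2* alone (6.61% of all) and a GATA element before *Tfpi* alone (9.2% of all). The cAMP response element (1.97% of all) and the TATA box (12.4% of all) had no match in these windows. A match is a description of letters and shows no binding.

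FPKM is scaled by length, so the 9 genes can be ranked by level. In WT mice *Serpine2* was highest with 124 ± 19.3 FPKM (SD, n = 3), followed by *Vwf* with 60.1 ± 20.5, *Plat* with 36.7 ± 18.7 and *F3* with 28.3 ± 8.42 FPKM. *Anxa2* (12.6 ± 3.94 FPKM) and *Thbd* (12.03 ± 2.95 FPKM) came next, then *Tfpi* (6.41 ± 2.43 FPKM), *Procr* (2.49 ± 1.06 FPKM) and *F8* (0.915 ± 0.743 FPKM). Only *Serpine2* against *Vwf*, *F3* against *Anxa2* and *Tfpi* against *Procr* had WT ranges that did not overlap with the next gene. *Plat* exceeded *F3* in 3 of the 5 libraries, so the order of this pair differed between mice. *Serpine2* alone made up 36.4% to 58.0% of the summed FPKM of the 9 genes.

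**Figure D1:**
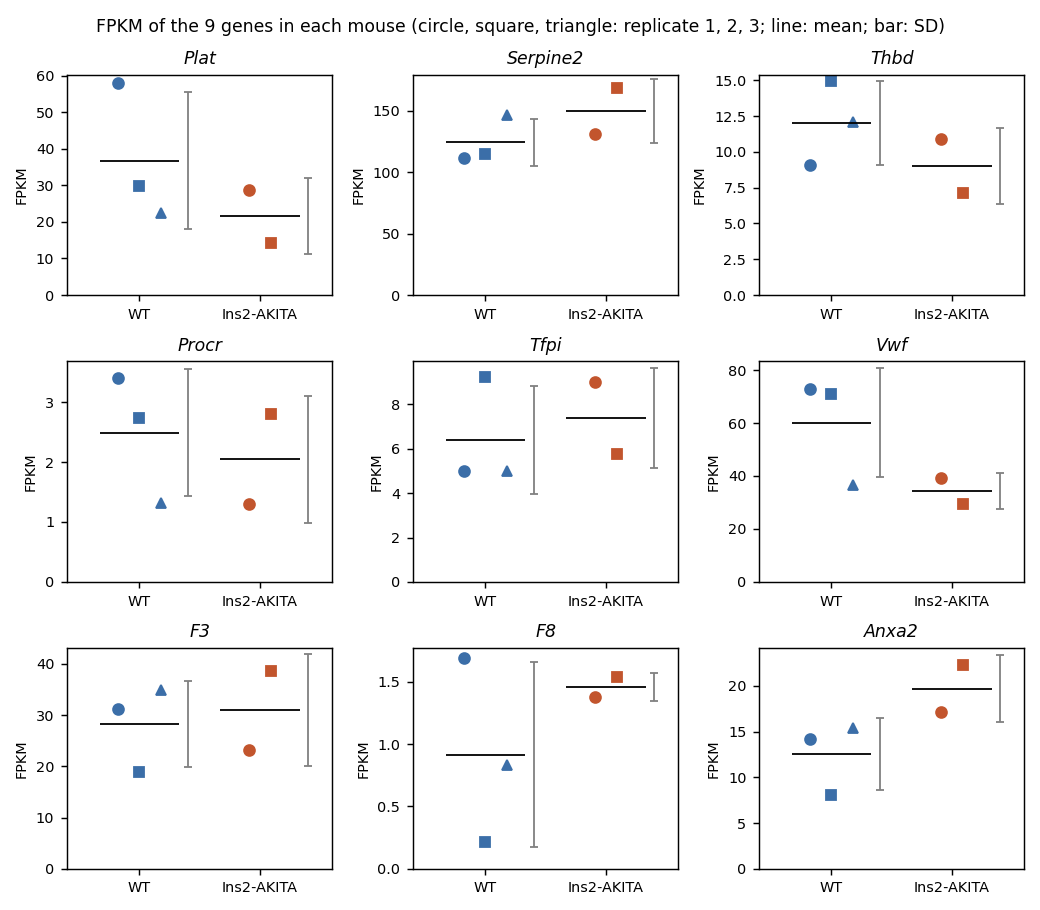
FPKM (y axis, from 0, with its own scale per gene) of the 9 genes in each WT (blue, n = 3) and Ins2-AKITA mouse (orange, n = 2). Symbols give the replicate number, black lines the means and grey bars the SD. Only for *Anxa2* do both Ins2-AKITA mice lie outside the range of the WT mice.

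To ask whether these genes differ in hyperglycemic mice, the genotypes were compared over all 16286 genes with a mean of at least 1 FPKM, using limma on log2(FPKM + 1) with Benjamini-Hochberg adjustment. None of the 9 genes passed an adjusted p of 0.05 (0 higher and 0 lower, smallest adjusted p = 0.90 from limma). Over all genes tested, 0% were called higher and 0.0246% lower by this rule. None of the 9 had an unadjusted p under 0.05, a limit passed by 1.53% of all genes as higher and by 2.93% as lower. The 9 log2 fold changes had a median of 0.13, with 5 above 0 and 4 below, where all genes had a median of -0.03. Values of both Ins2-AKITA mice lay above all WT values for 1 of the 9 genes and below them for 0 of the 9, against 9.24% and 10.3% of all genes tested. Small and ribosomal RNA genes held 96.7%, 96.6% and 58.0% of the summed FPKM in WT replicates 1 to 3. They held 89.6% and 40.6% in Ins2-AKITA replicates 1 and 2, and the part of this in the values was not tested. With every library scaled to a common sum of all FPKM, the median over all genes moved to 1.07 (log2), and *Plat* (0.83), *Thbd* (0.84), *Procr* (0.59) and *Vwf* (0.89) turned positive, each below that median. With 3 mice against 2, an exact permutation test cannot give a p below 0.1, and fold changes on the log2(FPKM + 1) scale understate the change of low genes.

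**Figure D2:**
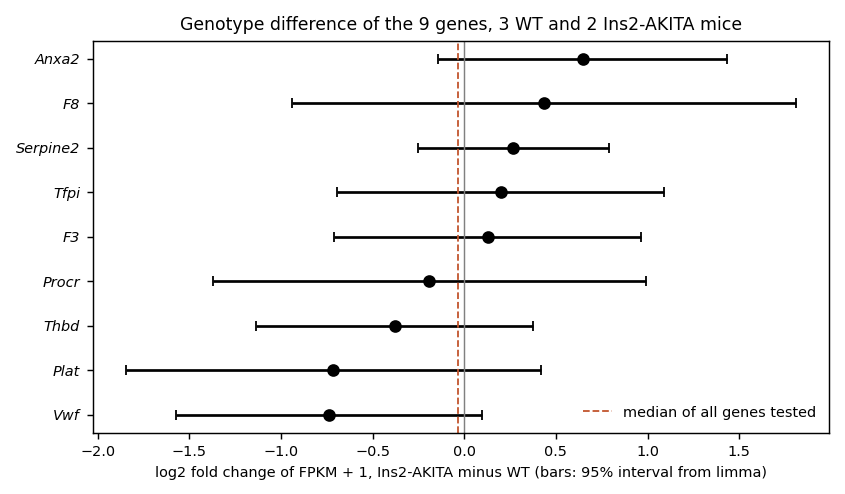
Log2 fold change of FPKM + 1 between Ins2-AKITA and WT mice (x axis) for the 9 genes (y axis), with 95% intervals from limma. Every interval includes 0, from *Vwf* at -0.74 to *Anxa2* at 0.65. The dashed line marks the median of all genes tested.

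Of the 9 genes, the plasminogen activator *Plat* (ENSMUSG00000031538, chromosome 8 from 23868216 to 23893319, plus strand) had the widest range over the WT mice on the scale of log2(FPKM + 1). On log2 FPKM itself the range of the low gene *F8* was wider. The WT mice had 57.9, 29.9 and 22.4 FPKM (replicates 1 to 3, the order used throughout), and the Ins2-AKITA mice 28.9 and 14.2 FPKM. WT replicate 1 stood far above all other mice, Ins2-AKITA replicate 2 lay below all WT mice, and the other Ins2-AKITA mouse lay among them. The means were 36.7 ± 18.7 (SD, n = 3) and 21.5 ± 10.4 FPKM (SD, n = 2). The Ins2-AKITA mean was 1.71-fold lower, and the gap between the means was smaller than the SD of the WT mice. The log2 fold change was -0.71 (95% interval -1.84 to 0.42, adjusted p = 0.90 from limma, exact permutation p = 0.4). It shrank to -0.34 without WT replicate 1 and to -0.23 without Ins2-AKITA replicate 2, and it was -1.20 without Ins2-AKITA replicate 1, -0.80 without WT replicate 2 and -1.0 without WT replicate 3. *Plat* has 1 annotated transcript, so its values can be turned into fragments: an estimated 156, 91 and 147 in WT mice against 75 and 42 in Ins2-AKITA mice. The exact 95% Poisson interval, which covers counting error only, was 49.2 to 67.8 FPKM in WT replicate 1 and 10.2 to 19.2 FPKM in Ins2-AKITA replicate 2. The interval of WT replicate 1 did not reach that of WT replicate 2 (24.1 to 36.7 FPKM). In the study's own analysis, a different test (Cufflinks) called *Plat* lower in Ins2-AKITA mice after correction for multiple tests. The level that the study printed for Ins2-AKITA mice was lower than the mean given here and close to the value of Ins2-AKITA replicate 2 alone. The level that it printed for WT mice was close to the WT mean given here. The reason for this difference was not tested.

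*Serpine2* (ENSMUSG00000026249, chromosome 1 from 79790772 to 79855271, minus strand), the most abundant of the 9, had the narrowest range over the 5 mice on the log2 scale. It had 112, 114 and 146 FPKM in WT and 131 and 168 FPKM in Ins2-AKITA mice. Ins2-AKITA replicate 2 was highest and the groups overlapped through WT replicate 3. The log2 fold change was 0.27 (95% interval -0.25 to 0.79, adjusted p = 0.90 from limma, exact permutation p = 0.3). With each mouse left out in turn it ranged from 0.091 without Ins2-AKITA replicate 2 to 0.45 without Ins2-AKITA replicate 1.

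*Anxa2* (ENSMUSG00000032231, chromosome 9 from 69301427 to 69339602, plus strand) was at 14.2, 8.06 and 15.4 FPKM in WT and at 17.1 and 22.3 FPKM in Ins2-AKITA mice. Both Ins2-AKITA mice were above all WT mice, with the closest pair at 15.4 and 17.1 FPKM. The means of 12.6 ± 3.94 (SD, n = 3) and 19.7 ± 3.66 FPKM (SD, n = 2) differed 1.57-fold, and the log2 fold change of 0.65 did not pass the threshold (95% interval -0.14 to 1.44, adjusted p = 0.90 from limma, exact permutation p = 0.2). WT replicate 2 was the lowest mouse. Its log2 fold change was 0.38 without that mouse and up to 0.83 with any other mouse left out, the highest being without Ins2-AKITA replicate 1. *S100a10*, which encodes the partner that annexin A2 binds in its surface complex, belongs to the list of other pathway genes. It had 22.4, 24.4 and 25.3 FPKM in WT and 32.8 and 35.8 FPKM in Ins2-AKITA mice. The groups did not overlap, and each was tight. Its log2 fold change was 0.50 (95% interval 0.05 to 0.94, adjusted p = 0.90 from limma, exact permutation p = 0.1, the smallest possible). Its unadjusted limma p was 0.035, and it was 0.041 to 0.10 with 1 mouse left out, below 0.05 only without WT replicate 3. The astrocyte markers moved in the same direction as *Serpine2*, *Anxa2* and *S100a10*: their mean deviation from the 5 mice was -0.43, -0.35 and 0.10 in WT mice against 0.22 and 0.47 in Ins2-AKITA mice on the log2 scale. Their part in these values was not tested.

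Of the anticoagulant receptors and inhibitors, *Thbd* (ENSMUSG00000074743, chromosome 2 from 148230207 to 148233924, minus strand) had 9.07, 15.0 and 12.1 FPKM in WT and 10.9 and 7.13 FPKM in Ins2-AKITA mice. Only Ins2-AKITA replicate 2 lay outside the WT range. The log2 fold change was -0.38 (95% interval -1.13 to 0.38, adjusted p = 0.90 from limma, exact permutation p = 0.4). With each mouse left out in turn it ranged from -0.66 without Ins2-AKITA replicate 1 to -0.10 without Ins2-AKITA replicate 2, and was -0.22 without WT replicate 2. *Thbd* also has 1 annotated transcript, and an estimated 32 to 120 fragments per mouse lay behind its values. The Poisson interval of Ins2-AKITA replicate 2 (4.87 to 10.1 FPKM) overlapped that of WT replicate 1 (6.39 to 12.5 FPKM). The 7 genes listed as markers of the response to tissue dissociation summed to 158 to 188 FPKM in WT against 130 and 138 FPKM in Ins2-AKITA mice, with 6 of 7 log2 fold changes below 0, and their part in the *Thbd* values was not tested.

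*Procr* (ENSMUSG00000027611, chromosome 2 from 155576853 to 155581207, plus strand) was low, with 3.40, 2.74 and 1.32 FPKM in WT and 1.29 and 2.80 FPKM in Ins2-AKITA mice. Both genotypes held a value near the lowest and one of 2.74 FPKM or more, and the log2 fold change was -0.19 (95% interval -1.37 to 0.99, adjusted p = 0.96 from limma). With the combined length of all its exons, these values stand for an estimated 2.63 to 7.18 fragments per mouse at most. With 1 mouse left out the log2 fold change ranged from -0.56 without Ins2-AKITA replicate 2 to 0.17 without Ins2-AKITA replicate 1.

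*Tfpi* (ENSMUSG00000027082, chromosome 2 from 84273012 to 84316932, minus strand) was at 5.0, 9.22 and 5.0 FPKM in WT and at 8.99 and 5.78 FPKM in Ins2-AKITA mice. A high and a low value occurred in both genotypes, and the log2 fold change was 0.20 (95% interval -0.69 to 1.09, adjusted p = 0.95 from limma). It was -0.0802 without Ins2-AKITA replicate 1, 0.071 without WT replicate 1 or WT replicate 3, and 0.45 or more without WT replicate 2 or Ins2-AKITA replicate 2.

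On the procoagulant side, *Vwf* (ENSMUSG00000001930, chromosome 6 from 125496792 to 125636697, plus strand) was the gene with the smallest limma p of the 9. It had 73.0, 70.9 and 36.5 FPKM in WT and 39.3 and 29.5 FPKM in Ins2-AKITA mice. WT replicates 1 and 2 were high, and WT replicate 3 stood with the Ins2-AKITA mice, below Ins2-AKITA replicate 1. The means were 60.1 ± 20.5 (SD, n = 3) and 34.4 ± 6.89 FPKM (SD, n = 2), and the Ins2-AKITA mean was 1.75-fold lower. The log2 fold change was -0.74 (95% interval -1.57 to 0.10, limma p = 0.075 before adjustment and 0.90 after, exact permutation p = 0.3). Without WT replicate 3, 5.58% of all genes were lower at an unadjusted limma p under 0.05, against 2.93% with all mice. Without that mouse the log2 fold change of *Vwf* was -1.06, with a limma p of 0.0054 before adjustment. It was -0.57 without WT replicate 1, -0.59 without WT replicate 2, -0.94 without Ins2-AKITA replicate 1 and -0.54 without Ins2-AKITA replicate 2, and none of these passed an unadjusted p of 0.05. Of the 12 endothelial markers, 10 moved in the same direction, with *Pecam1* at a log2 fold change of -0.43 and *Cldn5* at -0.35. The exceptions were *Kdr* at 0.04 and *Slco1c1* at 0.045, and none of the 12 passed an adjusted p of 0.05 from limma. Of the 5 platelet markers, *Ppbp* was listed at 0 in every library. *Pf4* was above 0 only in WT replicate 2 (2.09 FPKM) and *Gp9* only in WT replicate 3 (0.601 FPKM), both named with their values known. The 5 summed to 4.74 to 12.7 FPKM in WT against 1.5 and 2.97 FPKM in Ins2-AKITA mice. *Itga2b*, chosen after its values were seen, made up most of that sum with 3.27 to 10.3 FPKM in WT and 1.14 and 2.26 FPKM in Ins2-AKITA mice. The 5 markers of red blood cells summed to 35.1 to 67.7 FPKM in WT against 25.1 and 32.4 FPKM in Ins2-AKITA mice, with all 5 log2 fold changes below 0. The part of these markers in the *Vwf* values was not tested.

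*F3* (ENSMUSG00000028128, chromosome 3 from 121426455 to 121437970, plus strand) had 31.1, 18.8 and 34.9 FPKM in WT and 23.2 and 38.7 FPKM in Ins2-AKITA mice. The Ins2-AKITA mice held both a value near the lowest and the highest of all. The log2 fold change of 0.13 (95% interval -0.71 to 0.97, adjusted p = 0.96 from limma) turned negative without WT replicate 2 (-0.13) or without Ins2-AKITA replicate 2 (-0.23), and was 0.48 without Ins2-AKITA replicate 1.

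*F8* (ENSMUSG00000031196, chromosome X from 72418054 to 72627954, minus strand) was the lowest of the 9, with 1.69, 0.214 and 0.836 FPKM in WT and 1.38 and 1.54 FPKM in Ins2-AKITA mice. The value of WT replicate 2 stands for an estimated 2.74 fragments at most and lies under the 0.235 FPKM that 3 fragments would give. The Ins2-AKITA mice lay within the WT range, and the log2 fold change was 0.44 (95% interval -0.94 to 1.81, adjusted p = 0.92 from limma). It was 0.14 without WT replicate 2 and 0.72 without WT replicate 1.

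Across the 9 genes, Ins2-AKITA replicate 2 lay outside the WT range for 6 genes: above it for *Serpine2*, *F3* and *Anxa2*, and below it for *Plat*, *Thbd* and *Vwf*. Ins2-AKITA replicate 1 lay outside it for 2 genes, *Anxa2* (above) and *Procr* (below). The share of all genes outside the WT range was not computed for either Ins2-AKITA mouse alone. These counts therefore cannot show whether either mouse was unusual. Endothelial markers were lowest in Ins2-AKITA replicate 2, with a mean deviation of -0.44 on the log2 scale. It was 0.07, 0.53 and -0.11 in the WT mice and -0.06 in Ins2-AKITA replicate 1.

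**Figure D3:**
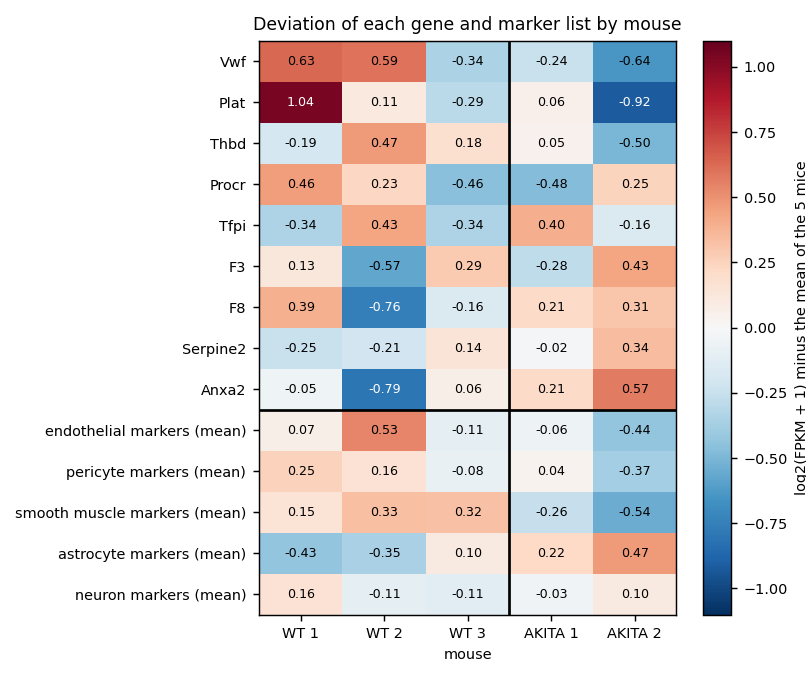
Deviation of log2(FPKM + 1) from the mean of the 5 mice, by mouse (x axis), for the 9 genes and, under the line, the mean over 5 marker lists (y axis). Red is above the mean and blue below it. *Plat* ranged from 1.04 in WT replicate 1 to -0.92 in Ins2-AKITA replicate 2.

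Each gene was then read relative to the 12 endothelial markers of the same library, a value that does not depend on how a library is scaled. The mean log2 FPKM of these markers was itself 5.50, 5.98 and 5.33 in WT mice against 5.38 and 4.99 in Ins2-AKITA mice. A lower reference raises the relative value of every gene, so a higher value by this measure need not mean more RNA of that gene. By this measure *Vwf* and *Plat* differed less: the difference between the genotypes was -0.33 for *Vwf* and -0.32 for *Plat* on the log2 scale (exact permutation p = 0.4 and 0.8), and it was 0.0032 for *Thbd* (p = 1). Relative to endothelial markers *Vwf* was at 0.69, 0.16 and -0.14 in WT mice against -0.09 and -0.10 in Ins2-AKITA mice, so the Ins2-AKITA mice lay within the WT range. For *Plat* the difference became 0.12 without WT replicate 1. *Tfpi*, which overlapped between the genotypes in FPKM, was at -3.18, -2.78 and -3.00 in WT mice against -2.21 and -2.45 in Ins2-AKITA mice, a difference of 0.65 with no overlap (exact permutation p = 0.1, the smallest possible, and 0.75 after adjustment over 15 relations). Relative to *Pecam1* alone the difference was 0.67 (exact permutation p = 0.3). *Anxa2* was also above all WT mice by this measure, with a difference of 1.11 (exact permutation p = 0.2, adjusted 0.75). The share of all genes above all WT mice by this measure was not computed. *Serpine2* differed by 0.69, *F3* by 0.55, *F8* by 1.54 and *Procr* by 0.14, and each overlapped between the genotypes. The value of *F8* was 0.52 without WT replicate 2, whose *F8* value stands for fewer than 3 fragments, and 2.26 without WT replicate 1. That of *Serpine2* was 0.32 without Ins2-AKITA replicate 2 and 1.07 without Ins2-AKITA replicate 1, and that of *Anxa2* was 0.63 without WT replicate 2 and 0.73 without Ins2-AKITA replicate 2. *Tfpi* kept a difference of 0.53 to 0.77 with any 1 mouse left out.

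**Figure D4:**
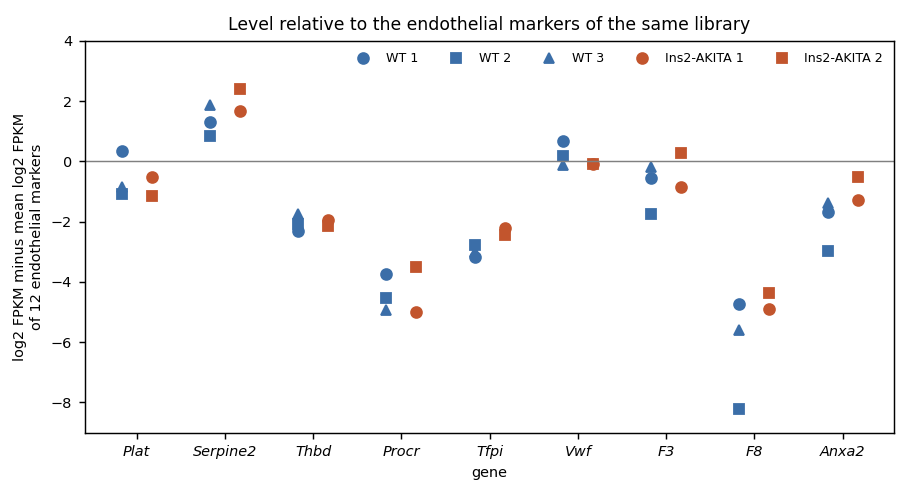
Log2 FPKM of the 9 genes (x axis) minus the mean log2 FPKM of 12 endothelial markers in the same library (y axis), for WT (blue) and Ins2-AKITA mice (orange), with symbols for the replicate number. *Tfpi* and *Anxa2* are the genes whose 2 Ins2-AKITA values lie above all WT values. The share of all genes that do so on this scale was not computed.

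The other 6 of these 15 relations were ratios of FPKM between genes with linked roles. The ratio of *Plat* to its inhibitor *Serpine2* was 0.519, 0.261 and 0.153 in WT mice against 0.220 and 0.0843 in Ins2-AKITA mice. It was highest in WT replicate 1 and lowest in Ins2-AKITA replicate 2, with the groups overlapping (log2 difference -1.01, exact permutation p = 0.4). The ratio of *Plat* to *Anxa2* was 4.08, 3.71 and 1.45 in WT mice against 1.69 and 0.636 in Ins2-AKITA mice (log2 difference -1.44, exact permutation p = 0.3). The ratio of *Vwf* to *F8* was lower in both Ins2-AKITA mice (28.5 and 19.2) than in WT mice (43.1, 331 and 43.7), and the highest value rests on the few *F8* fragments of WT replicate 2 (exact permutation p = 0.3). *Thbd* to *F3*, *Tfpi* to *F3* and *Thbd* to *Procr* had log2 differences of -0.55, 0.10 and -0.14, and all 3 overlapped. None of the 15 had an adjusted p under 0.75.

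For context, 52 other genes of coagulation and fibrinolysis were looked up, and 25 had a mean of at least 1 FPKM. None passed the adjusted threshold (0 higher and 0 lower, smallest adjusted p = 0.90 from limma), and 1, *S100a10*, had an unadjusted p under 0.05, as a higher gene, against 1.53% of all genes. Their median log2 fold change was -0.18, with 8 above 0 and 17 below. Both Ins2-AKITA mice were above all WT mice for 2 of the 25, *S100a10* and *Plaur*, and below them for 4, *Pros1*, *Proz*, *Ggcx* and *Gp1ba*, where the shares over all genes were 9.24% and 10.3%. These names other than *S100a10* were picked after their values were seen. *Plaur*, the urokinase receptor, had 1.46, 1.29 and 1.5 FPKM in WT and 2.27 and 2.00 FPKM in Ins2-AKITA mice. *Proz*, a cofactor for the inhibition of factor Xa, had 3.55, 3.49 and 3.72 FPKM in WT and 2.45 and 1.79 FPKM in Ins2-AKITA mice. *Pros1*, which encodes the protein C cofactor protein S, had 13.4, 10.3 and 14.7 FPKM in WT and 10.1 and 9.86 FPKM in Ins2-AKITA mice.

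The most abundant of the 25 were *Lrp1*, a clearance receptor for plasminogen activators bound to their inhibitors, *Lman1*, which ships factors V and VIII out of the cell, *Gas6*, *Anxa5* and *Furin*, a protease that processes the von Willebrand factor precursor. *Lrp1* had 97.6 to 125 FPKM in WT and 85.8 and 118 FPKM in Ins2-AKITA mice, with a log2 fold change of -0.18. The log2 fold changes of *Lman1*, *Gas6*, *Anxa5* and *Furin* were -0.15, -0.12, 0.25 and -0.18. The extremes were *F2rl3*, a thrombin receptor, at -0.89, and *Vkorc1*, which recycles vitamin K, at 0.64. *F2rl3* was near the detection limit, listed at 0 in Ins2-AKITA replicate 1, at 1.02 FPKM in Ins2-AKITA replicate 2 and at 0.993 to 2.25 FPKM in WT. Of the plasma factors made by liver, *F7*, *F10*, *F11*, *F13b*, *Fgb*, *Fgg* and *Proc* were listed at 0 in every library, as were the liver markers *Alb* and *Serpina1a*. The liver list also held *Apoa1*, at 1.06 FPKM in WT replicate 1 and listed at 0 elsewhere, and *Ttr*, which the choroid plexus of the brain also makes, at 669 to 1993 FPKM in WT and 960 and 1790 FPKM in Ins2-AKITA mice. Both were named after their values were seen. Not all plasma factors looked up were at 0. *Serpind1* was at 1.43 to 3.47 FPKM in WT and 1.28 and 1.46 FPKM in Ins2-AKITA mice. *F2* was at 0.201 to 0.491 FPKM in WT, at 0.508 FPKM in Ins2-AKITA replicate 1 and at 0 in Ins2-AKITA replicate 2. These 2 genes were picked here with their values known.

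**Figure D5:**
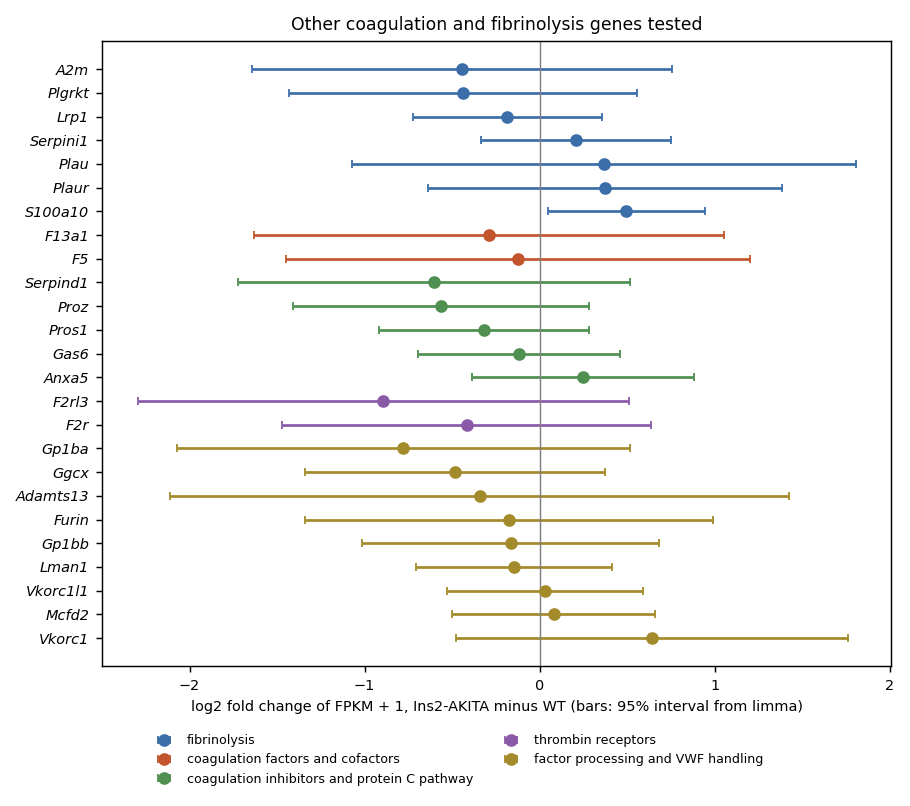
Log2 fold change of FPKM + 1 between Ins2-AKITA and WT mice (x axis) for the 25 other pathway genes tested (y axis), with 95% intervals from limma and colors for the 5 classes. *S100a10* is the gene whose interval excludes 0.

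The genes whose profile over the 5 mice lay closest to each of the 9 were taken from 101 tested genes of these lists, by the root mean square difference of centered log2 values. *Serpine2* was closest to the astrocyte marker *Aldoc* (0.073) and the pericyte marker *Anpep* (0.076), and *Vwf* to *Serpind1* (0.12) and the endothelial *Esam* (0.16). *Plat* was closest to the pericyte marker *Kcnj8* (0.24) and to *A2m* (0.28), and *Thbd* to *Egr1* (0.077) and *Mag* (0.13). The closest to *Anxa2* were *Gad2* (0.21) and *Gfap* (0.23), to *F3* *Snap25* (0.17) and *Anpep* (0.23), and to *F8* *Gad2* (0.17) and *Anxa2* (0.25). *Tfpi* was closest to *Mrc1* (0.18) and *Rgs5* (0.20), and *Procr* to *Ptprc* (0.25) and *F2r* (0.30). With 5 mice such closeness describes these libraries alone.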

How the data were processed

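Microvessel RNA of 5 mice was depleted of ribosomal RNA and sequenced. The authors mapped reads to NCBIM37 with TopHat2 2.0.4, removed duplicates with Picard 1.92, tested with Cufflinks 2.2.1 and deposited 1 FPKM value per Ensembl gene and mouse. The program behind the single-mouse values is not given in the sources used here. Removing duplicates can lower the values of short, abundant genes.

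Identifiers were matched to GENCODE vM1 (37197 of 37982), and rows with a shared symbol were summed. *Plgrkt* was matched by its older symbol in the RefSeq table. The test across genes with a mean of at least 1 FPKM was that of limma 3.58.1, run under R 4.3.3 (trended eBayes, two-sided, Benjamini-Hochberg at 0.05) on log2(FPKM + 1), a fit tested on simulated data. Other steps used Python 3.11.15 with scipy 1.17.1. Exact two-sided permutation tests covered all 10 splits of the mice. Ratios used FPKM without a pseudocount. Fragments were estimated from genes with 1 transcript and at least 1000 bases of exon, after the exon length was shortened by a fitted number of bases; 97.0% to 97.3% of their values up to about 10 fragments fell within 0.02 of a whole number. Small and ribosomal RNA genes held 40.6% to 96.7% of the summed FPKM, so values were not rescaled. The alternatives were other pseudocounts, filters, scalings, priors and row choices, the replicate block, and each mouse left out. The genes named were the 9 members, other pathway genes with an unadjusted p under 0.05, the 5 most abundant, the extremes, markers of the main cell types or listed at 0, and the 2 closest profiles per member; some others were named after their values were seen. The 9 genes, the lists and the motifs were chosen with earlier results of these data known.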

Additional observations from a re-analysis of the deposited data

How the results depend on the processing

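None of the 9 genes passed an adjusted p of 0.05 under any of the 16 alternatives in which they were tested (smallest adjusted p = 0.27 from limma); a limit of 5 FPKM left out *Procr* and *F8*. With the replicate block, *Plat* (log2 fold change -1.0036) and *Vwf* (-1.06) were lower at an unadjusted limma p under 0.05, a count of 2 against 0 where the share of all genes rose from 2.93% to 4.97%, and no other pathway gene passed (0 against 1). The labels do not say that equal numbers pair mice, and the block fit takes nothing from WT replicate 3. Deviations of same-numbered mice correlated at 0.051 and -0.034 across genes. With 2 Ins2-AKITA mice, the deviations from their mean mirror each other, so these values cannot decide whether mice are paired. A common sum of all FPKM (TPM) shifted the median over all genes from -0.03 to 1.07 (log2). Under it the median was 0.89 for the 9 genes and 0.88 for the other pathway genes, 1 of the 9 genes and 2 others were higher at an unadjusted p under 0.05 (11.1% of all genes), 58 of all genes were called higher and 30 lower, and the fold changes of *Plat* (0.83), *Thbd* (0.84), *Procr* (0.59) and *Vwf* (0.89) turned positive, each below the shift of all genes. With a constant prior 1 gene was called higher and 2 lower of all, and 0 other pathway genes passed an unadjusted p of 0.05. Of all genes, 2 were called lower without a filter, 2 with a limit of 5 FPKM and 1 among protein-coding genes, against 4. With each mouse left out in turn, where a lone Ins2-AKITA mouse is assumed to vary like the WT mice, all genes called ranged from 0 to 10 higher and 1 to 6 lower. Of the 9 genes, 0 to 1 were lower at an unadjusted p under 0.05; of the other pathway genes, 0 to 1 were higher and 0 to 1 lower, where the share of all genes was 1.2% to 3.03% higher and 1.91% to 5.58% lower. The medians ranged from -0.12 to 0.17 for the 9 genes and from -0.27 to -0.025 for the others. Fold changes that turned sign ranged from -0.56 to 0.17 for *Procr*, -0.0802 to 0.48 for *Tfpi* and -0.23 to 0.48 for *F3*. Log2 differences of ratios that turned sign ranged from -1.23 to 0.12 for *Thbd* to *F3*, -0.59 to 0.79 for *Tfpi* to *F3* and -1.0 to 0.73 for *Thbd* to *Procr*; relative to endothelial markers, from -0.64 to 0.12 for *Plat*, -0.13 to 0.16 for *Thbd*, -0.61 to 0.89 for *Procr* and -0.011 to 1.12 for *F3*. The cause of these changes was not tested.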
